A study of Mus musculus with 12 samples.

Results

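The genes examined here are 10 members of 2 families of myeloid cell surface receptors, together with the adaptor that many of them share: *Cd300a*, *Cd300c2*, *Cd300e*, *Cd300lb*, *Cd300ld* and *Cd300lf* of the CD300 family, *Trem1*, *Trem2* and *Treml4* of the TREM family, and *Tyrobp*. They were chosen by symbol from the family names, with earlier results of these counts known, and all 10 were found among the 48526 genes of the table. No threshold on the values chose them, but the choice was not blind to the values, so their changes are a description and not independent evidence. Bone marrow-derived macrophages (BMDMs), which are macrophages grown from marrow with the growth factor mCSF at 10 ng/mL, came from 3 female C57Bl/6J mice and were used on day 7 of culture. Every mouse gave an untreated culture and cultures that received 100 pg/mL IL-4, 100 ng/mL Wnt3a or both agents over 16 hr before RNA sequencing.

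Within a mouse, the 2 columns with Wnt3a in their name share reads: in every gene the count labelled Wnt3a was at least 1 and at most 2 times the count labelled Wnt3a+IL-4. Over all genes, 0 broke these bounds within a mouse, against 6681 to 8625 genes when the columns came from different mice. Each pair of columns was therefore split into 2 non-negative parts, named the difference (Wnt3a minus Wnt3a+IL-4) and the remainder (2 times Wnt3a+IL-4, minus Wnt3a). Both parts hold RNA of Wnt3a-treated cells, and the labels do not say which of them also received IL-4 (genes that respond to IL-4 are compared between the parts below). With the untreated and IL-4 samples this gave 12 libraries of 13342492 to 17453377 counts, 3 in each of the 4 groups untreated, IL-4, difference and remainder. In such bulk RNA, fewer cells of a type and less RNA per cell cannot be told apart.

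CD300 and TREM receptors carry a single immunoglobulin-like domain, and several bind lipids, apolipoproteins or other signs of dying cells. Some, such as CD300A and CD300LF, carry inhibitory tyrosine motifs in their tails that recruit the phosphatases SHP-1 and SHP-2. Others, such as TREM2, TREM1 and CD300LB, have short tails and signal through an adaptor with an activating tyrosine motif, most often TYROBP (also called DAP12), which recruits the kinase SYK. In macrophages these receptors tune the response to lipid, debris and microbial products, and TREM2 is best known from lipid-laden macrophages and from microglia.

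The 6 *Cd300* genes lie on chromosome 11 of mm10, in a cluster of 11 *Cd300* genes between 114890041 and 115133992 (244 kb), of which 10 are read from the minus strand. *Trem1*, *Treml4* and *Trem2* lie on chromosome 17 and *Tyrobp* on chromosome 7. No exon base of the 10 genes overlapped an exon of another annotated gene. RefSeq promoter windows of 300 bases on GRCm38.p6 (250 before and 50 after the start) were matched by symbol for 9 of the 10 genes. The 250 bases before the start are shown 5′ to 3′ on the strand of the gene for *Cd300a* and *Cd300lf*, the first and the last gene of the cluster, which moved in opposite directions in the Wnt3a-treated parts, and for *Trem2*, which changed while *Tyrobp* was not called. They cover chr11:114889791-114890040 (plus strand), chr11:115133993-115134242 (minus strand) and chr17:48346151-48346400 (plus strand). Capitals mark exact matches, on either strand, to the motifs searched.
Cd300a: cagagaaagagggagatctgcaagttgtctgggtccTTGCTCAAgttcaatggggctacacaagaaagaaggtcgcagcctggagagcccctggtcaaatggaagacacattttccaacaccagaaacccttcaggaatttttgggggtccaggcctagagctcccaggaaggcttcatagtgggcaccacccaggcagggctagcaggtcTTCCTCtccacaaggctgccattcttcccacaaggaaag
Cd300lf: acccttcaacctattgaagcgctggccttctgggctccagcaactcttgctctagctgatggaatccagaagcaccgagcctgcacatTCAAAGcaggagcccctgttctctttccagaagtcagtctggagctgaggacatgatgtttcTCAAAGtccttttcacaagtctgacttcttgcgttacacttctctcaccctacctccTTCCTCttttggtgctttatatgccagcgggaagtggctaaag
Trem2: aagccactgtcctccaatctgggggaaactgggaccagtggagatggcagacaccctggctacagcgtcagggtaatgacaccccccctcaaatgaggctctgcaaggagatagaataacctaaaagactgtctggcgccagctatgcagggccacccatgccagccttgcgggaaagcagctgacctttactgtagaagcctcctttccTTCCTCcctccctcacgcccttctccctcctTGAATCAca

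The motifs searched on both strands of the 300-base windows were GAGGAA for PU.1, a transcription factor of the myeloid lineage, CTTTGA for TCF/LEF, the factors downstream of canonical Wnt signaling, TTGCNNAA for C/EBP, TGANTCA for AP-1, and TTC and GAA with 3 or 4 bases between them for STAT factors. The PU.1 letters stood in 7 of 9 windows, against 28.1% of 32544 windows of all genes. The TCF/LEF letters stood in 3 of 9 (*Cd300ld*, *Cd300lf* and *Treml4*), against 16.0% of all windows, and *Cd300lf* held them at 2 places. C/EBP letters were found in 2 windows (*Cd300a* and *Trem2*, against 10.8% of all windows), AP-1 letters in 1 (*Trem2*, against 7.79%), and the STAT letters with 3 bases between in 2 (*Cd300e* and *Trem1*, against 8.33%). With 4 bases between they were found in 0 of 9 (6.98% of all windows). Such matches describe the letters in these windows and are not binding sites.

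Levels were expressed as CPM (counts relative to the library total after TMM scaling), and divided by exon length where genes are compared with each other. In untreated cells *Tyrobp* was highest, at 2612 ± 356 CPM per kb (SD, n = 3 mice). *Cd300c2* (298 ± 30.9 CPM per kb) and *Trem2* (290.4 ± 38.5 CPM per kb) followed and did not differ beyond their spread, and the same held for *Cd300lb* (158 ± 6.55 CPM per kb) and *Cd300a* (146 ± 11.04 CPM per kb). *Cd300ld* came next, at 74.9 ± 2.604 CPM per kb. *Cd300e* (10.6 ± 1.31 CPM per kb) and *Cd300lf* (9.22 ± 1.28 CPM per kb) were much lower and lay within each other's spread. *Treml4* (1.47 ± 0.239 CPM per kb) and *Trem1* (0.312 ± 0.119 CPM per kb) were lowest. All levels below are CPM without division by length unless counts are named.

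**Figure D1:**
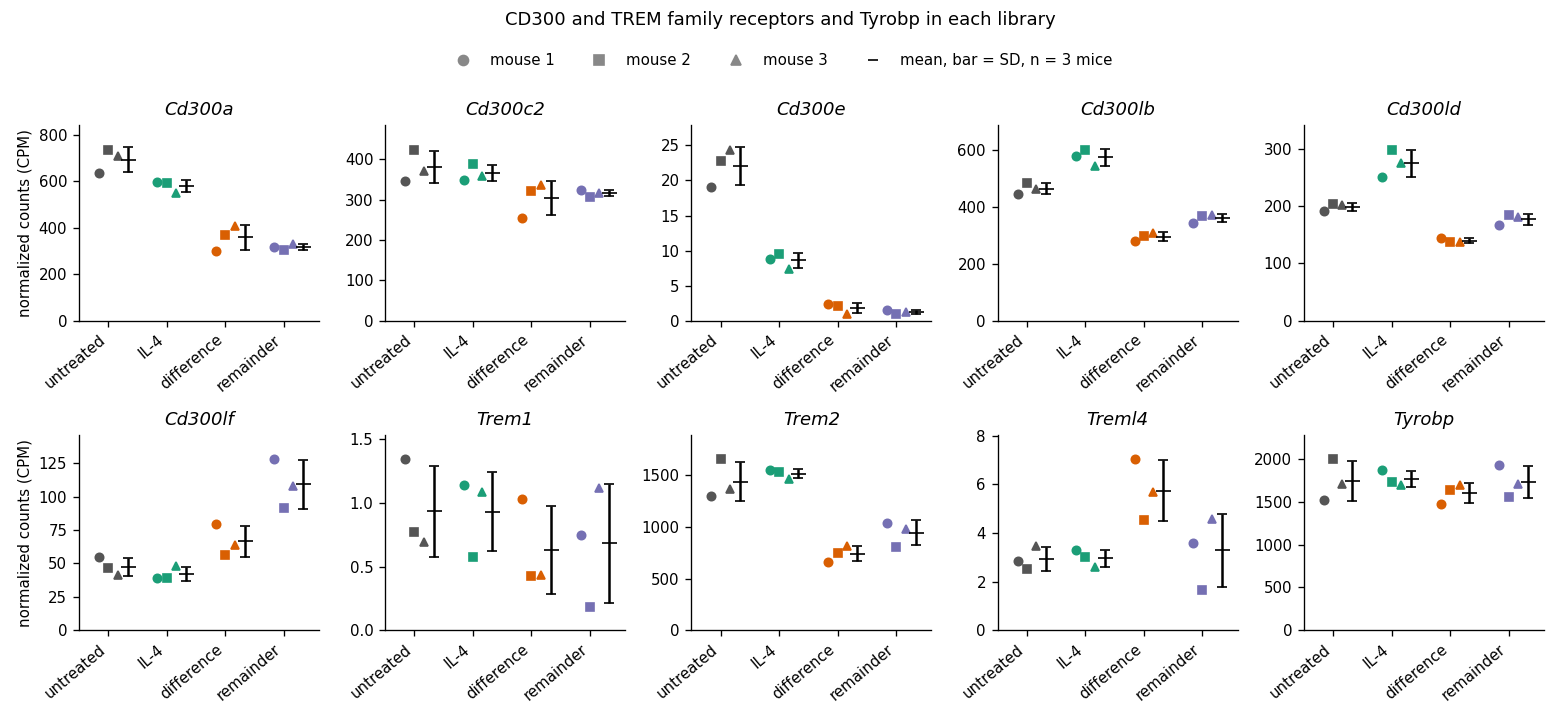
Normalized counts (CPM, linear axes from 0) of the 10 genes in each library of the 4 groups, with 1 marker shape for each mouse and a bar for the mean ± SD (n = 3 mice). *Cd300e* fell from a mean of 22.1 CPM in untreated cells to 1.22 CPM in the remainder, *Cd300lf* rose to 109 CPM there, and *Tyrobp* lay between 1473 and 1996 CPM in all 12 libraries.

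Against untreated cells, 12421 genes that reached 10 counts in 3 or more libraries were tested, and all 10 genes were among them. With IL-4, 3 of 10 changed (adjusted p below 0.05 in the quasi-likelihood test of edgeR), 2 higher and 1 lower, where 2.31% of all tested genes were higher and 1.09% lower. In the difference, 8 of 10 changed, 2 higher and 6 lower, where 11.8% of all tested genes were higher and 11.4% lower. In the remainder, 5 of 10 changed, 1 higher and 4 lower, where 13.6% were higher and 11.7% lower. The median log2 fold change of the 10 genes was -0.00 with IL-4, -0.53 in the difference and -0.32 in the remainder, against -0.00, -0.01 and -0.02 for all tested genes. Under scaling by total counts alone, which moved the median of all genes to -0.06, -0.10 and -0.13, the share of higher genes among all called genes went from 68.0% to 53.8% with IL-4, from 50.7% to 33.6% in the difference and from 53.8% to 35.6% in the remainder.

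**Figure D2:**
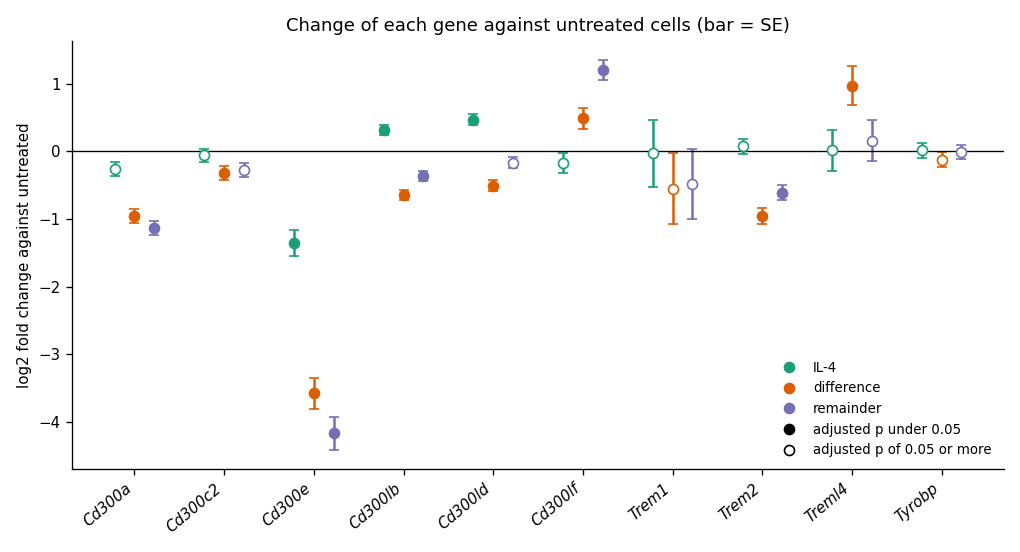
Log2 fold change against untreated cells (vertical axis, bar = SE) of the 10 genes with IL-4 and in both Wnt3a-treated parts (the difference, then the remainder), with filled points for an adjusted p below 0.05 and open points for the rest. *Cd300e* lay lowest, at -3.57 and -4.17 in the parts from Wnt3a-treated cells, and *Cd300lf* lay at 0.49 and 1.20.

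*Cd300e* encodes an activating receptor known from non-classical monocytes. It was measured at 19.1, 22.8 and 24.4 CPM in the untreated libraries of mouse 1, 2 and 3, at 8.81, 9.52 and 7.43 with IL-4, at 2.35, 2.08 and 1.02 in the difference and at 1.55, 0.922 and 1.18 in the remainder. The untreated, IL-4 and Wnt3a-treated levels formed 3 steps that did not overlap, while the difference and the remainder overlapped. Against untreated cells it fell by 1.36 ± 0.19 (SE) on the log2 scale with IL-4 (adjusted p = 0.000834), by 3.57 ± 0.23 in the difference (adjusted p = 1.01e-07) and by 4.17 ± 0.24 in the remainder (adjusted p = 2.89e-08). The levels were 2.57-, 11.9- and 18.0-fold lower. The counts behind the lowest levels were 14 to 41 in the difference and 15 to 25 in the remainder. Without mouse 3, the change with IL-4 was -1.20 and was not called (adjusted p = 0.0517).

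The 3 genes whose log2 CPM followed *Cd300e* most closely over the 12 libraries, out of 12411 other tested genes, were *Tmem171* (Pearson's r = 0.979), the chemokine gene *Ccl4* (r = 0.976) and *Dgkg* (r = 0.974). *Ccl4* was at a mean of 49.5 CPM in untreated cells, 26.2 with IL-4, 9.18 in the difference and 9.58 in the remainder. These correlations describe libraries of 4 groups from the same mice.

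Ly6C-low monocytes, the mouse counterpart of non-classical monocytes, were followed through 8 other markers (*Nr4a1*, *Ace*, *Spn*, *Itgal*, *Fcgr4*, *Pou2f2*, *Eno3* and *Cx3cr1*). Of these 8, 4 were lower with IL-4 (against 1.09% of all tested genes), 4 lower and 1 higher in the difference (against 11.4% and 11.8%), and 6 lower in the remainder (against 11.7%). Their summed level was 1113 to 1127 CPM in untreated libraries, 671 to 758 with IL-4, 985 to 1040.0 in the difference and 609 to 724 in the remainder, with 0 of the 8 at the floor of 3 counts in any group. *Nr4a1*, a nuclear receptor on which these monocytes depend, fell from 11.2 ± 1.20 CPM (SD, n = 3) to 4.89 ± 0.868 with IL-4, 1.897 ± 0.807 in the difference and 2.002 ± 0.413 in the remainder. Other markers went differently in the difference: *Spn* rose from 49.7 ± 5.66 CPM in untreated cells to 79.3 ± 6.69. *Itgal* stood at 486 ± 16.8 and 485 ± 22.4 CPM, and *Cx3cr1* at 303 ± 14.9 and 255 ± 10.7, in the same order. The part of Ly6C-low monocytes in the fall of *Cd300e* was not tested.

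*Cd300lf* encodes an inhibitory receptor that binds phosphatidylserine and ceramide and is known to associate with the IL-4 receptor. It was measured at 54.6, 46.4 and 41.5 CPM in the untreated libraries of mouse 1, 2 and 3, at 39.2, 39.3 and 48.3 with IL-4, at 79.4, 56.6 and 63.8 in the difference and at 128, 91.6 and 108 in the remainder. Both parts from Wnt3a-treated cells lay above all untreated and IL-4 libraries, and the remainder lay above the difference without overlap. *Cd300lf* rose by 0.49 ± 0.15 in the difference (adjusted p = 0.0298) and by 1.20 ± 0.15 in the remainder (adjusted p = 3.79e-05), and stood at -0.17 ± 0.15 with IL-4 (adjusted p = 0.691). The rise in the difference was not called under scaling by total counts (0.40, adjusted p = 0.0958) or without mouse 3 (0.43, adjusted p = 0.227).

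*Cd300a*, the inhibitory receptor gene at the other end of the cluster, moved the other way. It was measured at 634, 735 and 709 CPM in the untreated libraries of mouse 1, 2 and 3, at 595, 590.2 and 549 with IL-4, at 301, 366 and 408 in the difference and at 317, 303 and 329 in the remainder. The IL-4 libraries lay below all untreated ones, but that change was not called (-0.26 ± 0.10, adjusted p = 0.229). *Cd300a* fell by 0.95 ± 0.10 in the difference (adjusted p = 1.07e-05) and by 1.13 ± 0.10 in the remainder (adjusted p = 1.86e-06). Within a library, and so without any scaling, there were 6.92 ± 1.47 *Cd300lf* counts per 100 *Cd300a* counts in untreated cells (SD, n = 3), 7.35 ± 1.26 with IL-4, 19.2 ± 6.28 in the difference and 34.5 ± 5.28 in the remainder. The lowest ratio in either part, 15.5, was above the highest without Wnt3a, 8.81.

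**Figure D3:**
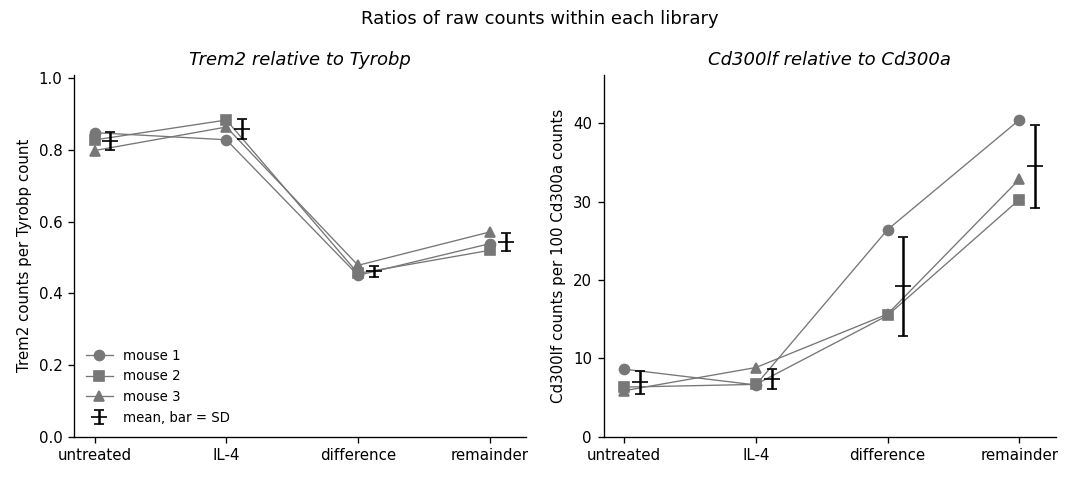
Ratios of raw counts within each library for each mouse, with the mean ± SD (n = 3) of each group, for *Trem2* per *Tyrobp* count and *Cd300lf* per 100 *Cd300a* counts. The mean *Trem2* ratio was 0.825 in untreated cells and 0.461 in the difference, and the mean *Cd300lf* ratio was 6.92 in untreated cells and 34.5 in the remainder.

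*Cd300lb* and *Cd300ld* encode activating receptors, which signal through TYROBP and through the adaptor FCER1G, respectively. *Cd300lb* was measured at 443, 481 and 462 CPM in the untreated libraries of mouse 1, 2 and 3, at 579, 600.1 and 541 with IL-4, at 278, 298 and 307 in the difference and at 344, 367 and 369.8 in the remainder. *Cd300ld* was measured at 190.3, 203 and 201 CPM in the untreated libraries of mouse 1, 2 and 3, at 251, 298 and 275 with IL-4, at 144, 137 and 138 in the difference and at 166, 184 and 179.8 in the remainder. For both genes the 4 groups did not overlap, with the order IL-4, untreated, remainder and difference from high to low. With IL-4, *Cd300lb* rose by 0.31 ± 0.07 (adjusted p = 0.0291) and *Cd300ld* by 0.47 ± 0.08 (adjusted p = 0.00248). In the difference, *Cd300lb* fell by 0.65 ± 0.07 (adjusted p = 1.71e-05) and *Cd300ld* by 0.51 ± 0.08 (adjusted p = 0.000261). In the remainder, *Cd300lb* fell by 0.36 ± 0.07 (adjusted p = 0.00217), while *Cd300ld* stood at -0.17 ± 0.08 (adjusted p = 0.134) and was called under scaling by total counts alone (-0.27, adjusted p = 0.0227).

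Several of these calls were lost when any 1 mouse, or a certain mouse, was left out or when 1 setting was changed. Leaving out 1 mouse at a time, the log2 changes with IL-4 ranged from 0.28 to 0.34 for *Cd300lb* and from 0.41 to 0.51 for *Cd300ld*. Over all tested genes, the calls with IL-4 went from 422 to 292, 296 and 77 without mouse 1, 2 and 3. The rise of *Cd300lb* with IL-4 was not called without mouse 1, 2 or 3 (adjusted p = 0.112, 0.210 and 0.328), with only the untreated and IL-4 libraries in the fit (0.0629) or with every gene of at least 1 count tested (0.0519). That of *Cd300ld* was not called without mouse 2 (0.0503) or mouse 3 (0.199), and the fall of *Cd300lb* in the remainder was not called without mouse 3 (0.0566).

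*Cd300c2*, the most abundant CD300 gene per length, encodes an activating receptor. It was measured at 347, 424 and 371 CPM in the untreated libraries of mouse 1, 2 and 3, at 349, 387 and 358 with IL-4, at 255, 321 and 336 in the difference and at 322, 307 and 316 in the remainder. Both parts from Wnt3a-treated cells lay below all untreated and IL-4 libraries. *Cd300c2* fell by 0.32 ± 0.10 in the difference (adjusted p = 0.0346) and stood at -0.27 ± 0.10 in the remainder (adjusted p = 0.0683) and at -0.06 ± 0.10 with IL-4 (adjusted p = 0.862). The call in the difference was lost without mouse 2 (-0.28, adjusted p = 0.159) or mouse 3 (-0.41, adjusted p = 0.121) and with only the compared libraries in the fit (adjusted p = 0.0837). In the remainder it was called without mouse 1 (-0.35, adjusted p = 0.0149), under scaling by total counts (-0.38, adjusted p = 0.00671) and with every gene of at least 1 count tested (adjusted p = 0.0489). Of the 50-base stretches of its exons, 7.16% also occur in another gene, as do 3.45% of those of *Cd300a*, 3.89% of *Cd300ld* and 2.44% of *Cd300lf*, so a small part of their reads could belong elsewhere.

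Summed over the 6 *Cd300* genes, untreated cells held 1803 ± 112 CPM (SD, n = 3), IL-4-treated cells 1842 ± 75.0, the difference 1165 ± 97.9 and the remainder 1279 ± 24.5. Divided by exon length, *Cd300c2* made up 42.7% ± 1.42 of the 6 genes in untreated cells, 39.7% ± 0.708 with IL-4, 49.4% ± 2.44 in the difference and 47.0% ± 0.935 in the remainder. *Cd300a* made up 21.0% ± 0.498, 16.9% ± 0.771, 15.6% ± 0.896 and 12.7% ± 0.341 in the same order, and *Cd300lf* 1.33% ± 0.262, 1.14% ± 0.178, 2.73% ± 0.746 and 4.03% ± 0.655. There were 0.668 ± 0.0262 *Cd300lb* counts per *Cd300a* count in untreated cells and 0.992 ± 0.0223 with IL-4, and these groups did not overlap.

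Of 7 further CD300 genes on a list of the family, 4 passed the count filter. With IL-4, 0 of 4 were called by edgeR, with 0 at an unadjusted p under 0.05 and 0 by DESeq2. In the difference 3 of 4 were lower (against 11.4% of all tested genes), and in the remainder 2 of 4 (against 11.7%). *Cd300ld3* fell by 1.76 ± 0.28 in the difference (adjusted p = 0.000351) and by 1.86 ± 0.28 in the remainder (adjusted p = 0.000184). *Cd300ld5* fell by 1.86 ± 0.43 (adjusted p = 0.00609) and by 1.62 ± 0.42 (adjusted p = 0.0108). All 50-base stretches of *Cd300ld5* and 82.1% of those of *Cd300ld3* also occur in another gene, so their separate values are uncertain. The third gene, *Cd300lg*, known from endothelial cells and named after its values were seen, fell by 1.37 ± 0.35 in the difference (adjusted p = 0.0107), from 2.74 ± 0.934 to 1.05 ± 0.355 CPM.

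**Figure D4:**
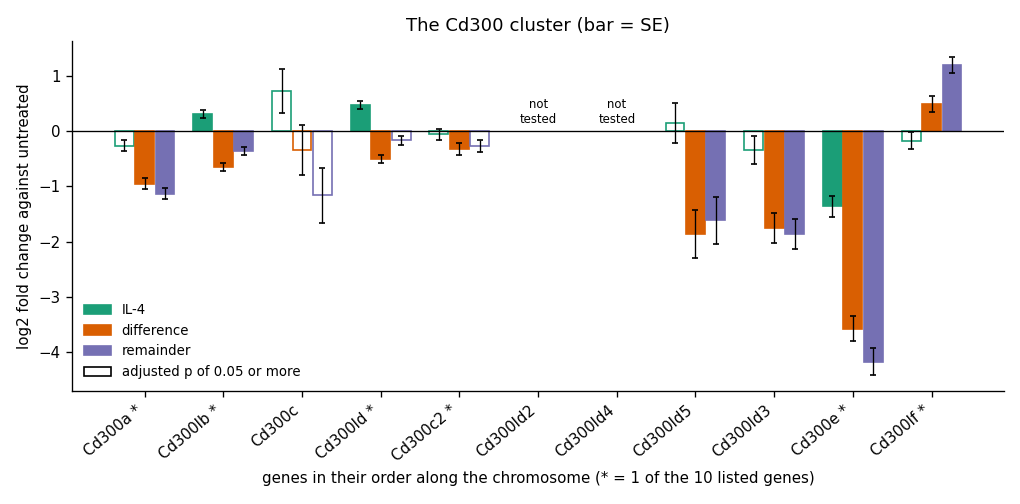
Log2 fold change against untreated cells (vertical axis) of the 11 genes of the *Cd300* cluster in their order along chromosome 11, filled where the adjusted p was below 0.05, with 2 genes not tested. Among the 9 tested genes, *Cd300lf* at the right end was the only gene called higher in the difference (0.49) and the remainder (1.20), and *Cd300e* beside it was lowest (-3.57 and -4.17).

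*Trem2* encodes the receptor for lipids and apolipoproteins that pairs with TYROBP. It was measured at 1294, 1653 and 1362 CPM in the untreated libraries of mouse 1, 2 and 3, at 1548, 1531 and 1463 with IL-4, at 663, 744 and 812 in the difference and at 1040.0, 806 and 977 in the remainder. All libraries of both parts from Wnt3a-treated cells lay below the lowest library without Wnt3a. *Trem2* fell by 0.96 ± 0.12 in the difference (adjusted p = 3.38e-05), or 1.94-fold, and by 0.61 ± 0.12 in the remainder (adjusted p = 0.00125), or 1.53-fold. With IL-4 *Trem2* stood at 0.08 ± 0.11 (adjusted p = 0.844).

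*Tyrobp*, the adaptor, was not called in any comparison. It was measured at 1525, 1996 and 1706 CPM in the untreated libraries of mouse 1, 2 and 3, at 1868, 1732 and 1692 with IL-4, at 1473, 1634 and 1698 in the difference and at 1931, 1550.3 and 1711 in the remainder. All 4 groups overlapped, and the log2 fold changes were 0.02 ± 0.11 with IL-4 (adjusted p = 0.970), -0.12 ± 0.11 in the difference (adjusted p = 0.469) and -0.01 ± 0.11 in the remainder (adjusted p = 0.964). The sign with IL-4 was negative under scaling by total counts (-0.03), and that in the remainder was positive with every gene of at least 1 count tested (0.0039). Per *Tyrobp* count there were 0.825 ± 0.0251 *Trem2* counts in untreated cells (SD, n = 3), 0.859 ± 0.0280 with IL-4, 0.461 ± 0.0149 in the difference and 0.543 ± 0.0259 in the remainder. The ratio ranged from 0.799 to 0.884 in the 6 libraries without Wnt3a and from 0.450 to 0.571 in the 6 libraries with it.

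The 3 genes whose log2 CPM followed *Trem2* most closely over the 12 libraries were *Plekho2* (Pearson's r = 0.984), *Tspan14* (r = 0.980), which encodes a tetraspanin that binds the protease ADAM10, and *Abhd12* (r = 0.978), which encodes a lysophosphatidylserine lipase. *Plekho2* was at a mean of 657 CPM in untreated cells, 742 with IL-4, 366 in the difference and 446 in the remainder.

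*Treml4*, which encodes a receptor that binds dead cells, gave few reads: 53, 39 and 55 counts in untreated libraries, 55, 47 and 36 with IL-4, 123, 74 and 78 in the difference and 58, 27 and 70 in the remainder. In CPM the difference lay above all untreated and IL-4 libraries, and the remainder overlapped all other groups. *Treml4* rose by 0.97 ± 0.29 in the difference (adjusted p = 0.0260), a call lost without mouse 1 (0.76, adjusted p = 0.217) or mouse 3 (1.11, adjusted p = 0.0984). It stood at 0.16 ± 0.30 in the remainder (adjusted p = 0.742) and at 0.02 ± 0.30 with IL-4 (adjusted p = 0.992), or -0.04 under scaling by total counts.

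*Trem1*, whose product amplifies inflammatory signals in neutrophils and monocytes, gave 25, 12 and 11 counts in untreated libraries, 19, 9 and 15 with IL-4, 18, 7 and 6 in the difference and 12, 3 and 17 in the remainder. All groups overlapped. The log2 fold changes of *Trem1* were -0.03 ± 0.49 with IL-4 (adjusted p = 0.993), -0.55 ± 0.52 in the difference (adjusted p = 0.491) and -0.48 ± 0.52 in the remainder (adjusted p = 0.534).

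Of 5 further TREM genes on a list of the family, 2 passed the count filter. With IL-4, 0 of 2 were called by edgeR, with 0 at an unadjusted p under 0.05 and 0 by DESeq2. *Treml2* rose by 0.93 ± 0.30 in the difference (adjusted p = 0.0376) and by 1.44 ± 0.30 in the remainder (adjusted p = 0.00233), from 5.69 ± 1.41 CPM in untreated cells (SD, n = 3) to 10.8 ± 2.14 and 15.5 ± 6.44. *Treml1*, known from platelets, fell by 1.56 ± 0.32 in the difference (adjusted p = 0.00287) and stood at -0.77 ± 0.30 in the remainder (adjusted p = 0.0790).

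Which receptors differ between the 2 Wnt3a-treated parts, of which 1 also received IL-4, was addressed by comparing the remainder with the difference. Of the 10 genes, 3 were called, all higher in the remainder, where 2.87% of all tested genes were higher and 2.38% lower. *Cd300lf* was higher by 0.71 ± 0.15 (adjusted p = 0.0116), with ratios of 1.61, 1.62 and 1.69 in mouse 1, 2 and 3. *Cd300ld* was higher by 0.34 ± 0.08 (adjusted p = 0.0189) and *Cd300lb* by 0.29 ± 0.07 (adjusted p = 0.0343). *Trem2*, higher in the remainder in 3 of 3 mice, stood at 0.35 ± 0.11 (adjusted p = 0.108) and *Treml4* at -0.81 ± 0.29 (adjusted p = 0.134).

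Without mouse 3, 0 of these 10 genes were called between the parts, and the values were 0.70 for *Cd300lf* (adjusted p = 0.236), 0.32 for *Cd300ld* (0.415) and 0.31 for *Cd300lb* (0.373). *Cd300lb* was also not called without mouse 1 (0.0910) or mouse 2 (0.0978) or with only the compared libraries in the fit (0.0808), nor *Cd300ld* without mouse 2 (0.0767). *Trem2* was called without mouse 2 (0.46, adjusted p = 0.0298), by DESeq2 (adjusted p = 0.0491) and with every gene of at least 1 count tested (adjusted p = 0.0104). In that last setting *Treml4* was called as well, lower in the remainder (-0.81, adjusted p = 0.00905).

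Compared with IL-4 alone, 6 of the 10 genes differed in the remainder, 1 higher and 5 lower, where 10.6% of all tested genes were higher and 9.67% lower. *Cd300lf* was higher by 1.37 ± 0.15 (adjusted p = 1.58e-05). *Cd300e* was lower, at a log2 fold change of -2.81 ± 0.25 (adjusted p = 2.11e-06), followed by *Cd300a* at -0.87 ± 0.10, *Trem2* at -0.69 ± 0.12, *Cd300lb* at -0.67 ± 0.07 and *Cd300ld* at -0.64 ± 0.08. The groups did not overlap for any of these 6 genes. They also did not overlap for *Cd300c2*, which was not called (-0.21 ± 0.10, adjusted p = 0.173). The share of all tested genes without overlap was not computed, so this lack of overlap is not a result about these genes as a set. The difference was not compared with IL-4 alone.

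Whether the IL-4 effect differed with and without Wnt3a depends on which part received IL-4, so both assignments were computed. With the remainder taken as Wnt3a+IL-4, 0 of the 10 genes were called by edgeR (0.105% of all tested genes), 1 had an unadjusted p under 0.05 and 1 was called by DESeq2. That gene was *Cd300lf*, at 0.88 ± 0.21 (adjusted p = 0.127 by edgeR and 0.0163 by DESeq2). With every gene of at least 1 count tested, edgeR did call *Cd300lf* (0.89, adjusted p = 1.13e-06). In that setting 575 genes were called in place of 13. With the difference taken as Wnt3a+IL-4, 3 of the 10 were called, where 7.33% of all tested genes were: *Cd300ld* at -0.81 ± 0.11 (adjusted p = 0.000230), *Cd300lb* at -0.60 ± 0.10 (adjusted p = 0.00195) and *Cd300e* at 1.96 ± 0.35 (adjusted p = 0.00275). DESeq2 called 4, with *Cd300a* (adjusted p = 0.0364) as the fourth. *Cd300a* was also called under total counts (adjusted p = 0.0176), with every gene of at least 1 count tested (0.0202) and without mouse 1 (0.0131). *Cd300lf* was called with every gene tested (0.00847) and without mouse 1 (0.0458), and *Trem2* with every gene tested (0.0463) and without mouse 2 (0.0320). Without mouse 3 the calls of *Cd300ld* (adjusted p = 0.0535) and *Cd300lb* (adjusted p = 0.0781) were lost.

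Genes that respond to IL-4 without Wnt3a were set beside their change between the parts, a comparison added after the values were seen. Of 8 genes of the lists described below that were called with IL-4 at a log2 change above 1 in size, 6 were called in the same direction in the remainder against the difference and 2 were not called. Over all tested genes, 2.87% were higher and 2.38% lower in the remainder against the difference. Of the 422 genes called with IL-4, only these 8 were compared in this way. *Itgax* was at 23.1 ± 2.71 CPM in untreated cells and 176 ± 22.9 with IL-4 (SD, n = 3), and at 58.5 ± 3.03 in the difference and 244 ± 14.6 in the remainder. The log2 fold change with IL-4 and that of the remainder against the difference were 2.94 and 2.06 for *Itgax*, 1.39 and 1.12 for *Clec7a*, 1.15 and 1.28 for *Fyn*, 1.11 and 1.47 for *Cst7*, -1.65 and -1.72 for *Pilrb1*, and -1.44 and -1.41 for *Pilrb2*. For *Klf4* they were 1.16 and 0.33 (adjusted p = 0.524), and for *Nr4a1* -1.20 and 0.09 (adjusted p = 0.912). In 6 of 8 genes the remainder thus stood to the difference as IL-4 stood to untreated cells. That is the direction of the assignment of the remainder to Wnt3a+IL-4. Under it, edgeR called 0 of the 10 genes over the 12421 tested genes, and *Cd300lf* with every gene of at least 1 count tested. The parts were not assigned from these values.

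The genes that act with these receptors were described from lists. Among the adaptors, *Fcer1g* was at 1089 ± 36.9 CPM (SD, n = 3) in untreated cells, 994 ± 63.3 with IL-4, 1208 ± 31.5 in the difference and 1139.6 ± 102 in the remainder. *Fcer1g* was not called in these comparisons. *Hcst*, the adaptor that recruits PI3-kinase, was at 13.5 ± 1.83 CPM in untreated cells and fell by 0.66 ± 0.18 in the difference (adjusted p = 0.0176). In the remainder 0 of these 2 adaptors were called by edgeR, with 1 at an unadjusted p under 0.05 and 1 by DESeq2, and with IL-4 0, 0 and 0.

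Of 11 other receptors that pair with TYROBP, 7 passed the count filter. Over all tested genes, the shares called higher and lower were 2.31% and 1.09% with IL-4, 11.8% and 11.4% in the difference, and 13.6% and 11.7% in the remainder. For the remainder against the difference they were 2.87% and 2.38%. In the difference 5 of 7 were higher (median log2 fold change 1.10), among them *Sirpb1c*, at 1.75 ± 0.17 (adjusted p = 3.82e-06), and *Sirpb1a*, at 1.55 ± 0.27 (adjusted p = 0.000822), which belong to a family of activating receptors. *Sirpb1c* was at 8.76 ± 1.74 CPM in untreated cells, 29.6 ± 2.35 in the difference and 16.1 ± 1.16 in the remainder. In the remainder 2 of 7 were higher, *Sirpb1c* (0.87) and *Sirpb1b* (0.85), and 3 of 7 lower, among them *Clec5a* (-0.96) and *Pilrb2* (-0.83). With IL-4, 2 of 7 were lower, *Pilrb1* (-1.65) and *Pilrb2* (-1.44). Compared with the difference, 6 of 7 were lower in the remainder. The 3 called genes of the 10 were higher there, but *Cd300lf* is inhibitory and *Cd300ld* signals through FCER1G. Those of the 10 not called included *Trem2* at 0.35, *Cd300e* at -0.60 and *Treml4* at -0.81. The *Sirpb1* genes, and *Pilrb1* and *Pilrb2*, resemble each other, so reads may be divided between them.

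**Figure D5:**
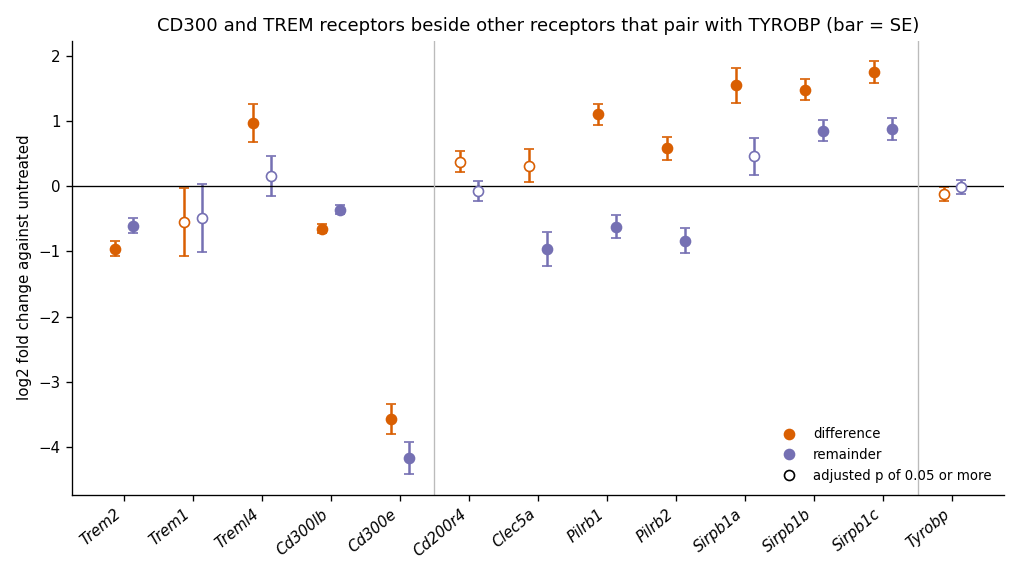
Log2 fold change against untreated cells (vertical axis, bar = SE) in the difference and the remainder, filled where the adjusted p was below 0.05. The genes are *Trem2*, *Trem1*, *Treml4*, *Cd300lb* and *Cd300e*, other receptors that pair with TYROBP, and *Tyrobp* itself. *Cd300a*, *Cd300c2*, *Cd300ld* and *Cd300lf* are not shown. *Trem2*, *Cd300lb* and *Cd300e* were called lower in both parts and *Sirpb1b* and *Sirpb1c* higher in both, and *Pilrb1* lay at 1.10 in the difference and -0.62 in the remainder.

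Downstream of the adaptors, 21 activating signal transducers were tested. With IL-4, 2 higher and 2 lower, in the difference 3 higher and 4 lower, and in the remainder 2 higher and 7 lower were called. Over all tested genes the shares were 2.31% higher and 1.09% lower with IL-4, 11.8% and 11.4% in the difference, and 13.6% and 11.7% in the remainder, so that the 2 higher genes of 21 in the remainder are below the share for all genes. *Lyn*, a Src family kinase that phosphorylates tyrosine motifs of both kinds, fell by 0.34 ± 0.07 with IL-4 (adjusted p = 0.0137), by 0.56 ± 0.07 in the difference (adjusted p = 5.56e-05) and by 1.06 ± 0.07 in the remainder (adjusted p = 1.13e-07), from 282 ± 7.22 to 135 ± 9.16 CPM there. The related kinase gene *Fgr* rose by 0.51, 1.11 and 1.11 in the same order. Of 8 inhibitory signal transducers, 1 higher and 1 lower were called with IL-4, 2 lower in the difference and 4 lower in the remainder. *Ptpn6*, the gene of SHP-1, fell by 0.39 ± 0.08 in the remainder (adjusted p = 0.00176), and *Inppl1*, which encodes the phosphatase SHIP2, fell by 0.63 ± 0.09 in the difference and by 0.56 ± 0.09 in the remainder.

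Of 9 genes for the shedding and cleavage of TREM2, 2 were higher and 1 lower in each part. Over all tested genes, 11.8% were higher and 11.4% lower in the difference, and 13.6% and 11.7% in the remainder. The 1 lower gene of 9 is thus near the share for all genes. With IL-4, 0 of the 9 were called by edgeR, 0 had an unadjusted p under 0.05 and 0 were called by DESeq2. *Psen2*, a catalytic subunit of γ-secretase, rose by 0.49 ± 0.08 in the difference (adjusted p = 0.000604) and by 0.49 ± 0.08 in the remainder (adjusted p = 0.000530). Of 7 ligands and partners, 1 was higher and 1 lower in the difference and 3 were higher and 1 lower in the remainder, and with IL-4 0 were called by edgeR, 2 had an unadjusted p under 0.05 and 1 was called by DESeq2. *Apoe*, a TREM2 ligand, fell by 1.21 ± 0.27 in the difference (adjusted p = 0.00494) and by 1.71 ± 0.27 in the remainder (adjusted p = 0.000349), from 15641 ± 3552 CPM to 6759 ± 2657 and 4779.9 ± 1248. *Il4ra*, the IL-4 receptor gene, rose by 0.55 ± 0.10 in the difference (adjusted p = 0.000874) and by 0.30 ± 0.10 in the remainder (adjusted p = 0.0345).

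Of 16 genes tied to TREM2 in lipid-associated macrophages, 5 were higher with IL-4, 5 higher and 3 lower in the difference, and 6 higher and 1 lower in the remainder, with median log2 fold changes of 0.30, -0.05 and 0.24. Over all tested genes these shares were 2.31% higher with IL-4, 11.8% higher and 11.4% lower in the difference, and 13.6% and 11.7% in the remainder, so that 1 lower gene of 16 is below the share for all genes. *Cst7*, a cysteine protease inhibitor, rose by 3.58 ± 0.13 in the difference and by 5.05 ± 0.13 in the remainder, from 2.07 ± 0.185 to 24.7 ± 0.978 and 68.5 ± 3.87 CPM. *Itgax*, which encodes the integrin CD11c, rose by 2.94 ± 0.11 with IL-4 and by 3.40 ± 0.11 in the remainder. *Lpl*, which encodes lipoprotein lipase, rose by 0.76 ± 0.16 with IL-4 (adjusted p = 0.0154), from 1298 ± 147 to 2199 ± 357 CPM, but fell by 1.55 ± 0.16 in the difference and by 1.32 ± 0.16 in the remainder. Of 15 myeloid transcription factors, 14 were tested, of which 2 higher and 3 lower were called with IL-4, 4 higher and 5 lower in the difference, and 3 higher and 5 lower in the remainder. *Nr4a1* fell by 1.20 ± 0.23 with IL-4 (adjusted p = 0.00924), by 2.57 ± 0.26 in the difference and by 2.49 ± 0.26 in the remainder, and *Tfec*, of the family of lysosomal regulators, rose by 1.06 ± 0.17 and by 1.43 ± 0.17.

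The labelled cell type was checked against markers. All 8 macrophage markers were detected, with summed levels of 43979 to 68614 CPM over the 12 libraries. Of the 8, 4 were higher in the difference (against 11.8% of all tested genes) and 2 in the remainder (against 13.6%). With IL-4, 1 was lower (against 1.09%). Neutrophil markers summed to 65.0 to 149 CPM, with *Ly6g* at the floor in all groups. Of 7 tested against untreated cells, 1 was higher and 1 lower in the difference, against 1 and 4 for the remainder. Ly6C-high monocyte markers summed to 184 to 221 CPM in the difference against 74.9 to 111 in the other groups. Of these 6 genes, 2 were higher and 0 lower in the difference, against 3 and 1 for the remainder. *Vcan* averaged 1.96, 67.1 and 15.3 CPM in untreated cells, the difference and the remainder, whereas *F13a1* averaged 60.8, 70.7 and 19.2. The neutrophil marker *Mmp8* averaged 19.8, 87.8 and 51.6 CPM in that order, whereas *S100a9* averaged 18.7, 14.6 and 11.7. Dendritic cell (1.16 to 2.83 CPM), mast cell (1.49 to 4.58 CPM) and stromal cell markers (4.14 to 28.1 CPM) were low throughout. *Ighm*, an immunoglobulin gene of B cells, was at 77.1 ± 3.93 CPM (SD, n = 3) in untreated cells, 37.2 ± 6.09 with IL-4, 8.17 ± 2.91 in the difference and 5.06 ± 0.696 in the remainder. Osteoclast markers summed to 33.2 to 43.1 CPM in untreated libraries and 118 to 183 in both parts, mostly *Acp5*, with *Calcr* at the floor. The part of these other cell types in the changes above was not tested.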

How the data were processed

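RNA from BMDM cultures of 3 mice was sequenced under 4 conditions. The deposited table holds raw counts of reads per Ensembl gene: per the labels and the study's methods, the authors ran FastQC 0.11.7, Trimmomatic 0.36, STAR 2.6.0 against mm10, SAMtools 1.9 and HTSeq 0.11.1, and tested with DESeq2 1.24.0. The strand setting is not given in the sources used here. Symbols were found for 48058 of 48526 genes (99.0%). The columns with Wnt3a were split as the report describes, so the parts are not columns as deposited.

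All 12 libraries entered 1 fit of edgeR 4.0.16 (R 4.3.3, TMM, quasi-likelihood, no mouse term) over genes with 10 or more counts in 3 or more libraries. Benjamini-Hochberg adjusted p-values cover all tested genes, with a threshold of 0.05. The SE is the log2 fold change divided by the square root of F. Each library has 13342492 to 17453377 counts. The p-values rest on a spread for each gene that was estimated within groups over all 12 libraries, with information from the other genes. The script was tested on simulated counts. Alternatives were DESeq2 1.42.0, its size factors, total counts, other filters, fewer libraries, a mouse block and leaving out each mouse.

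The same animal gave 1 library in each group, so mouse numbers pair the samples. Deviations from the group means correlated between -0.417 and 0.454 over 18 same-mouse pairs, with 6 above 0.1.

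The members and gene lists were chosen with earlier results of these data known. All 10 members are named, and from each list up to 2 highest and 2 lowest called log2 fold changes per comparison qualified for naming, or all genes of a list with 2 or fewer tested. For *Cd300e* and *Trem2*, the 3 genes with the highest correlation of log2 CPM (prior count 2) are named. The summed level of lymphocyte markers is not reported here.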

Additional observations from a re-analysis of the deposited data

Results flagged for a closer look

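For 3 of the 10 genes the IL-4 effect with Wnt3a differed from that without Wnt3a, by a test of the difference itself, when the difference is taken as the Wnt3a+IL-4 part and the remainder as the Wnt3a part. The values were -0.81 for *Cd300ld*, -0.60 for *Cd300lb* and 1.96 for *Cd300e* on the log2 scale. Of all tested genes, 7.33% were called under this assignment. The labels do not settle this assignment, and 6 of 8 list genes with a called IL-4 change above 1 in size on the log2 scale, such as *Itgax* (2.94 with IL-4 and 2.06 in the remainder against the difference), moved in the direction of the other one, so these 3 values rest on the assignment that most of those genes go against. Over all tested genes, 2.87% were higher and 2.38% lower in the remainder against the difference. With the parts exchanged, *Cd300ld*, *Cd300lb* and *Cd300e* gave -0.13 (adjusted p = 0.684), -0.02 (adjusted p = 0.968) and 0.76 (adjusted p = 0.397). Of the 10 genes, 0 were then called by edgeR, where 0.105% of all tested genes were. At an unadjusted p under 0.05 there was 1, and 1 was called by DESeq2 (*Cd300lf*). With every gene of at least 1 count tested, edgeR also called *Cd300lf* (adjusted p = 1.13e-06).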

How the results depend on the processing

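The number of the 10 genes called was 3 with IL-4, 8 in the difference, 5 in the remainder, 3 between the parts, 6 for the remainder against IL-4, and 0 and 3 for the IL-4 effect with against without Wnt3a with the remainder or the difference taken as Wnt3a+IL-4. Leaving out 1 mouse at a time gave 0 to 2, 5 to 7, 4 to 6, 0 to 2, 6 to 6, 0 to 0 and 1 to 5 in the same order. With every gene of at least 1 count tested, 5 were called between the parts, and 1 and 6 for the IL-4 effect, and DESeq2 called 1 in the first assignment. With the mouse as a replicate block, the counts were 3, 8, 5, 3, 6, 0 and 3, and the block changed no call: 62 of 62 values of the 10 genes kept their direction and their side of the threshold, as they did with DESeq2's size factors and with a filter of 1 CPM in 3 libraries. Values that changed sign belonged to genes that were not called. Under total counts alone these were *Treml4* (-0.039) and *Tyrobp* (-0.032) with IL-4 and *Cd300lb* (0.017) for the IL-4 effect with the remainder as Wnt3a+IL-4. With every gene of at least 1 count tested, it was *Tyrobp* in the remainder (0.0039). Leaving out 1 mouse at a time, values with IL-4 ranged from -0.38 to 0.0031 for *Cd300lf*, -0.33 to 0.17 for *Trem1*, -0.0034 to 0.17 for *Trem2*, -0.096 to 0.22 for *Treml4* and -0.11 to 0.13 for *Tyrobp*. In the remainder they ranged from -0.021 to 0.39 for *Treml4* and -0.18 to 0.18 for *Tyrobp*, and between the parts from -0.075 to 0.13 for *Cd300c2*, -0.65 to 0.56 for *Trem1* and -0.029 to 0.21 for *Tyrobp*. Against IL-4 they ranged from -0.24 to 0.49 for *Treml4* and -0.0764 to 0.056 for *Tyrobp* in the remainder, and *Cd300lb* ranged from -0.0331 to 0.0048 for the IL-4 effect with the remainder as Wnt3a+IL-4. Over all tested genes, leaving out mouse 3 took the calls from 422 to 77 with IL-4, from 2884 to 1220 in the difference, from 3137 to 1375 in the remainder, from 652 to 97 between the parts and from 2521 to 1043 for the remainder against IL-4, a fall across the whole table. Testing every gene with at least 1 count gave 812 calls with IL-4, 1454 between the parts, and 575 (against 13) and 1505 (against 910) for the IL-4 effect, and DESeq2 gave 165 in place of the 13. With the columns as labelled, 708 genes were called with IL-4, and with only the compared libraries 422 between the parts. The cause of these changes was not tested; each fit without a mouse has fewer samples. The counts of *Trem1*, between 3 and 25 in a library, limit what can be seen of this gene.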
